A study of Mus musculus with 72 samples.

Results

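The hypothalamus was compared with 3 telencephalic areas, hippocampus, prefrontal cortex and nucleus accumbens, of the same mice by bisulfite amplicon sequencing that keeps the parental alleles apart (IMPLICON). Members were the libraries of these 4 tissues on 1 sequencing lane: 32 of the 72 libraries of the series, 8 per tissue, 1 from each of 8 mice. All 8 were female F1 hybrids of BL6 and CAST mice. Mice 1 and 2 were old, at 101 weeks, with a BL6 mother, and mice 3 and 4 were old, at 103 weeks, with a CAST mother. Mice 5 and 6 were young, at 8 weeks, with a CAST mother, and mice 7 and 8 were young, at 9 weeks, with a BL6 mother. The ages are those of the sample labels, and the protocol text lets the range of the old animals begin a week later than 101. The protocol has the areas dissected after a brain atlas and homogenised, and the methylation of these amplicons holds no marker by which a dissection could be checked. In such mixed tissue, other proportions of cell types and another level per cell cannot be told apart.

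An imprinted region of the kind measured here carries DNA methylation on 1 parental copy, laid down in the egg or the sperm and kept in somatic cells. Several imprinted genes act in the hypothalamus, which regulates feeding, body temperature, growth and maternal care. The hypothalamus derives from the diencephalon, while hippocampus, prefrontal cortex and nucleus accumbens derive from the telencephalon, so the comparison asks whether methylation of the alleles differs between these divisions of the adult brain. Of the 10 regions measured, 7 are imprinted regions whose maternal copy is methylated (Commd1, Gnas, H13, Impact, Mest, Plagl1 and Snrpn). The other 3 are controls that are not imprinted: Klf4 and Sox2ot, which are little methylated, and Prickle1, which is methylated on both copies.

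The region that stood apart was Sox2ot, the gene of a long noncoding RNA that runs across Sox2, a transcription factor gene of neural stem cells. Its amplicon covers 17 CpGs at chr3:34649361-34649591 on build GRCm38, inside Sox2ot and ending 404 bases before the start of Sox2 on the plus strand. The Plagl1 amplicon lies at chr10:13091188-13091361, where Plagl1 and the noncoding Hymai overlap, and holds 13 CpGs. Klf4 lies at chr4:55530381-55530595 and Prickle1 at chr15:93500632-93500761. The other imprinted amplicons lie at chr11:22971952-22972139 (Commd1, with Zrsr1 inside it), chr2:174295708-174295954 (Gnas), chr2:152686786-152686970 (H13), chr6:30737609-30737809 (Mest) and chr7:60005043-60005284 (Snrpn), and the one of Impact is given with its values.

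For 2 imprinted amplicons the promoter sequence of the embedded retrogene shows which CpGs were read. Both stretches are from RefSeq, GRCm38.p6, plus strand, 5′ to 3′, and the capitals mark the measured CpGs. The first, at chr2:152686898-152686981, lies upstream of Mcts2, the imprinted retrogene in H13. The second, at chr11:22971942-22972004, lies directly upstream of Zrsr1, the imprinted retrogene in Commd1.
Mcts2 upstream stretch: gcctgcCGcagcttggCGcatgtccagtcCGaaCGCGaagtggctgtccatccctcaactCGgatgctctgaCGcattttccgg
Zrsr1 upstream stretch: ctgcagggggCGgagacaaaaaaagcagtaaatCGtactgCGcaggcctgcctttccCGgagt
Over the 6 of 7 Mcts2 CpGs with enough calls, methylation averaged 79.6% in hypothalamus and 79.7% in the telencephalic areas on the maternal allele. On the paternal allele these CpGs averaged 14% in hypothalamus and 13.8% in the telencephalic areas. These means include the CpG at position 152686958, which stood at 48.0 and 47.4% on the maternal allele and at 48.1 and 48.5% on the paternal allele in hypothalamus and in the telencephalic areas, while the other tested paternal H13 CpGs had means between 6.33 and 10.7%. The 4 Zrsr1 CpGs averaged 88.7% in hypothalamus and 87.8% in the telencephalic areas on the maternal allele, and 6.57 and 5.1% in the same order on the paternal allele. Both stretches thus showed a methylated maternal and a little methylated paternal copy in both brain divisions.

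A call is 1 reading of 1 CpG on 1 read assigned to 1 parental genome. Libraries held 16766 to 87803 calls in hypothalamus (median 66998), 376 to 165506 in hippocampus, 21582 to 182229 in prefrontal cortex and 10928 to 73752 in nucleus accumbens. Within mice, log2 total calls of hypothalamus exceeded the mean of the other areas by 0.32 ± 0.77 (SD, n = 8, exact two-sided sign-flip p = 0.273). Without mouse 3, whose hippocampus library held 376 calls, the excess was 0.08 ± 0.39 (n = 7, exact p = 0.547). This hippocampus library of old mouse 3 reached the minimum of 50 calls at none of its CpGs. Young mouse 8 had the shallowest library of each of the other 3 tissues. The prefrontal cortex library of young mouse 5 stood apart, with 2.65% on the maternal allele of Gnas, 62.8% on the paternal allele of Plagl1 and 46.1% on the maternal allele of H13. In that library 34.7% of calls were maternal, against 46.1 to 55.5% in the other prefrontal cortex libraries. Where leaving it out turned a named difference or moved it by over 1.5 times, the value without it is given too. Such values still hold the other libraries of mouse 5 where it has enough areas. The hypothalamus library of mouse 5 was the lowest of its tissue at maternal Gnas (70.7%), Impact (67.2%), Mest (53.6%) and Plagl1 (85.0%). At maternal H13 it was 77.2%, above mouse 8 alone (70.2%). At maternal Commd1 it was 82.7%, above mice 4 and 8, which had no difference there, and mouse 5 had a difference of -12.1 points. Values without the prefrontal cortex library can therefore still rest on mouse 5.

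The level of a region on 1 parental allele, here called a region-allele, is the mean percent methylation over its CpGs with at least 50 calls. Each mouse gave 1 difference per region-allele, hypothalamus minus the mean of the telencephalic areas with a value, at least 2 of 3. Of 20 region-alleles, 17 had a difference in at least 4 mice and were tested. Paternal Mest (3 mice), paternal Snrpn (1 mouse) and maternal Snrpn (no mouse) were not.

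In the limma fit over the 17 region-alleles, 1 passed the adjusted p of 0.05 (5.88%), and it was higher in hypothalamus: the maternal allele of Sox2ot. In edgeR's quasi-likelihood test, which weighs the methylated against the unmethylated calls, 2 of the 17 were called (11.8%), both alleles of Sox2ot. No imprinted region-allele was called by either test. Of the 11 imprinted region-alleles tested, 6 had a higher mean in hypothalamus and 5 a lower one, 1 had an unadjusted limma p under 0.05, and the largest absolute difference was 2.93 points. The median difference was 0.371 points over these 11 and 0.505 points over all 17. Without the prefrontal cortex library of mouse 5 these medians were 0.0511 and 0.349 points.

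**Figure D1:**
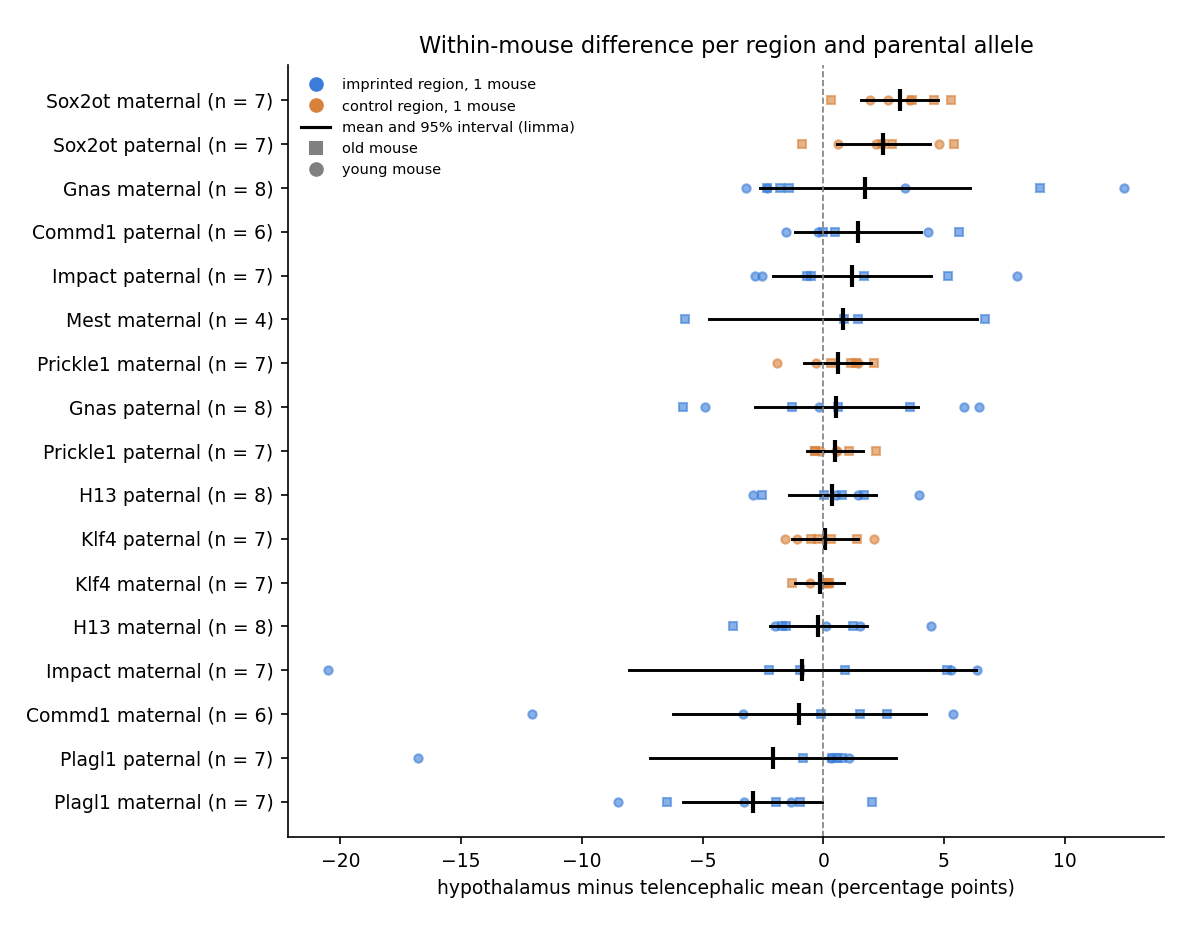
Hypothalamus minus telencephalic mean, in percentage points of methylation, for the 17 region-alleles tested, with 1 point per mouse (squares old, circles young) and the limma mean with its 95% interval. The 7 mice of maternal Sox2ot all lie above 0, and the points far to the left at Impact, Commd1 and Plagl1 and far to the right at maternal Gnas are mouse 5.

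Maternal Sox2ot methylation was 3.98, 7.36 and 8.45% as the lowest, median and highest of 7 mice in hypothalamus. In hippocampus it was 3.17% in mouse 2, 1.02% in mouse 4, 4.48% in mouse 5, 2.36% in mouse 6 and 1.70% in mouse 7. The lowest, median and highest of 7 mice were 1.28, 2.44 and 3.69% in prefrontal cortex and 3.79, 5.83 and 7.39% in nucleus accumbens. The hypothalamus values lay above every prefrontal cortex value, overlapped hippocampus only through the low hypothalamus of mouse 2, and overlapped nucleus accumbens widely. Mouse 8, whose libraries were among the shallowest, had no maternal Sox2ot value.

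Averaged per mouse, maternal Sox2ot stood at 6.90% ± 1.56 in hypothalamus and 3.74% ± 0.612 over the telencephalic areas (SD, n = 7). The hypothalamus was 3.16 points higher (SE 0.686), with a 95% interval from 1.57 to 4.75 (limma adjusted p = 0.0317), in 7 of 7 mice. The exact two-sided sign-flip p was 0.0156, the smallest that 7 mice allow. The difference was smallest in old mouse 2, at 0.322 points, and largest in old mouse 4, at 5.31 points. Leaving out the prefrontal cortex library of mouse 5 gave 3.09 points (adjusted p = 0.0344). Leaving out any 1 of mice 1, 3, 4, 5, 6 and 7 ended the limma call (adjusted p between 0.0522 and 0.107, difference 2.80 to 3.36 points). Without mouse 2 it held, at 3.63 points (adjusted p = 0.0113).

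Paternal Sox2ot methylation in hypothalamus was 2.56, 5.99 and 8.97% as the lowest, median and highest of 7 mice. In hippocampus it was 1.41% in mouse 2, 1.59% in mouse 4, 1.86% in mouse 5, 2.16% in mouse 6 and 1.27% in mouse 7. It was 1.11, 2.45 and 3.93% as the lowest, median and highest of 8 mice in prefrontal cortex, and 4.71, 5.57 and 8.65% of 7 mice in nucleus accumbens. Every hypothalamus value lay above every hippocampus value, while 1 hypothalamus value, that of mouse 2, lay within the range of prefrontal cortex and the range of nucleus accumbens lay inside that of hypothalamus. The mean was 6.19% ± 2.32 in hypothalamus and 3.71% ± 0.448 over the telencephalic areas (SD, n = 7). The difference of 2.48 points (95% interval 0.557 to 4.41) was positive in 6 of 7 mice. It did not pass in limma (adjusted p = 0.152, exact sign-flip p = 0.0469), and it passed in edgeR (adjusted p = 0.00136).

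**Figure D2:**
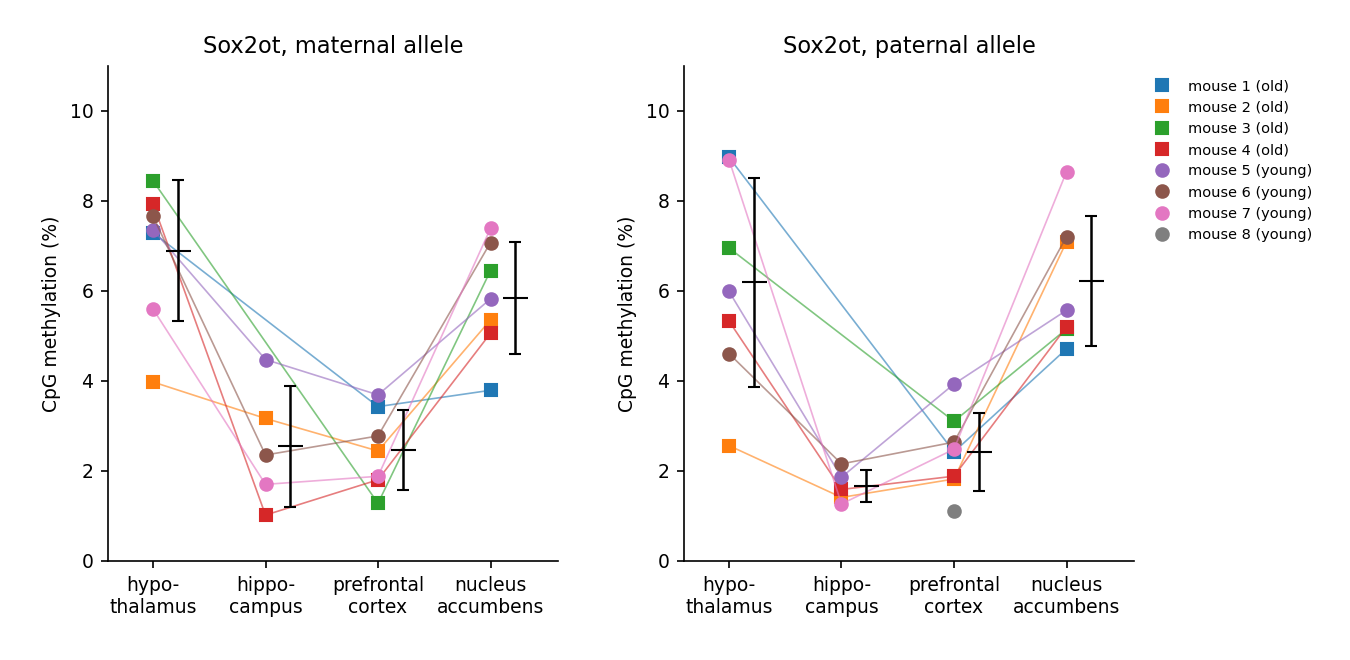
Sox2ot methylation in percent on the maternal (left) and paternal (right) allele in 4 brain areas, with 1 point and line per mouse (squares old, circles young) and black bars for the mean ± SD over mice. On both alleles hypothalamus and nucleus accumbens are high and hippocampus and prefrontal cortex low.

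The median coverage of a maternal Sox2ot CpG was between 54 and 1014 calls per library, and the shallowest library had 69 calls in hypothalamus, 63 in hippocampus, 72 in prefrontal cortex and 54 in nucleus accumbens. For 1 CpG at the coverage and level of the shallowest hypothalamus library (mouse 6, 7.66%, 69 calls), the exact Clopper-Pearson 95% interval was 2.39 to 16.1%. For the deepest prefrontal cortex library (mouse 5, 3.69%, 1014 calls) it was 2.58 to 4.99%. Klf4, the gene of a reprogramming transcription factor and the other little methylated control, was read in the same libraries, though not with enough calls in all the same mice. Maternal Klf4 had a difference in mouse 8 and none in mouse 5, while maternal Sox2ot had a difference in mouse 5 and none in mouse 8. Klf4 levels were 1.69% ± 0.263 in hypothalamus and 1.84% ± 0.688 over the telencephalic areas on the maternal allele (n = 7). The hypothalamus differed by -0.152 points, with a 95% interval from -1.18 to 0.878 (limma adjusted p = 0.873), and was higher in 5 of 7 mice. On the paternal allele they were 2.07% ± 0.884 and 2.00% ± 0.559 in the same order (n = 7), with a difference of 0.0648 points, a 95% interval from -1.31 to 1.44 and 3 of 7 mice higher (limma adjusted p = 0.916). These were the smallest differences of the 17. Without the prefrontal cortex library of mouse 5 the paternal Klf4 difference was 0.228 points, and paternal Impact, at 0.0511 points, was then the smallest.

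Area by area, the mean hypothalamus difference at Sox2ot was larger against prefrontal cortex and hippocampus than against nucleus accumbens, and none passed adjustment over the 3 areas. Against prefrontal cortex, maternal Sox2ot was 4.42 points higher (95% interval 2.42 to 6.43) and paternal Sox2ot 3.58 points higher (1.34 to 5.82), each in 7 of 7 mice. Against hippocampus the differences were 3.96 points (1.42 to 6.51) and 3.82 points (1.20 to 6.45), each positive in 5 of 5 mice. Against nucleus accumbens they were 1.05 points (-0.776 to 2.87) and -0.0363 points (-2.45 to 2.38), each positive in 5 of 7 mice.

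Limma with adjustment over all 51 tests of the 3 areas called none (0%), while 7 had an unadjusted p under 0.05, 4 in hippocampus, 3 in prefrontal cortex and 0 in nucleus accumbens. The lowest adjusted p was 0.056, for maternal Sox2ot against prefrontal cortex. When adjustment ran within 1 area, this was the single call. The other low unadjusted p values were paternal Sox2ot against prefrontal cortex, both Sox2ot alleles against hippocampus, maternal Plagl1 against both of these areas, and maternal H13 against hippocampus. At maternal H13 the hypothalamus was 4.03 points lower than hippocampus (95% interval -7.89 to -0.178, n = 7, limma adjusted p = 0.308). It was lower in 5 of 7 mice, and mouse 5 stood at -13.8 points, against -5.17 to 1.17 points in the other mice. A difference between the areas in their distance from hypothalamus was not tested.

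**Figure D3:**
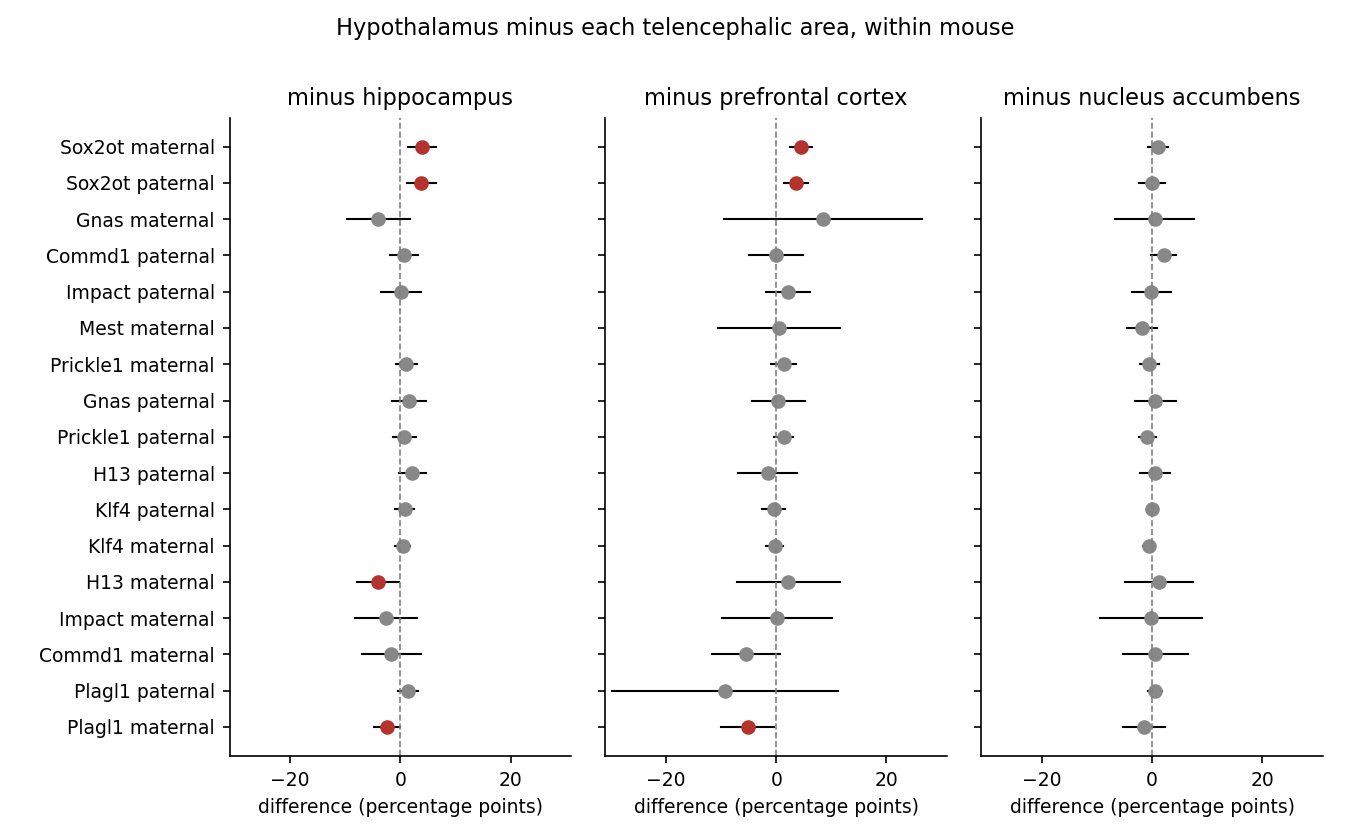
Hypothalamus minus each telencephalic area within mouse, in percentage points, for the same 17 region-alleles (maternal Mest had too few mice in hippocampus), with points for the mean, bars for the 95% interval and red for an unadjusted limma p under 0.05. Red points appear in the hippocampus and prefrontal cortex panels and at none of the region-alleles in the nucleus accumbens panel.

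Among the imprinted regions, Plagl1, which encodes a transcription factor with zinc fingers that restrains cell growth, had the largest difference. Maternal Plagl1 methylation was 85.0, 89.2 and 92.8% as the lowest, median and highest of 7 mice in hypothalamus, against 90.6, 92.6 and 94.1% for the telencephalic mean of the same mice. The ranges overlapped, and 6 of 7 mice were lower in hypothalamus. The means were 89.5% ± 2.95 in hypothalamus and 92.4% ± 1.30 over the telencephalic areas. The limma estimate of -2.93 points (95% interval -5.81 to -0.0405) did not pass adjustment, with a limma adjusted p of 0.27. The exact sign-flip p was 0.0781 and the adjusted p in edgeR 0.523. The largest single differences were -8.51 points in young mouse 5 and -6.48 points in old mouse 1. Without the prefrontal cortex library of mouse 5, whose maternal Plagl1 stood at 99.6%, the difference was -2.49 points (limma adjusted p = 0.239).

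The paternal allele of Plagl1 stayed low in hypothalamus, at 1.47, 3.27 and 5.66% as the lowest, median and highest of 7 mice. The telencephalic mean was 2.31 to 2.92% in 6 mice and 22.4% in mouse 5. The mean difference was -2.08 points, with a 95% interval from -7.17 to 3.01 (limma adjusted p = 0.80). Mouse 5 stood at -16.8 points and the other 6 mice between -0.839 and 1.06 points. Without its prefrontal cortex library the difference was 0.803 points (adjusted p = 0.606).

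**Figure D4:**
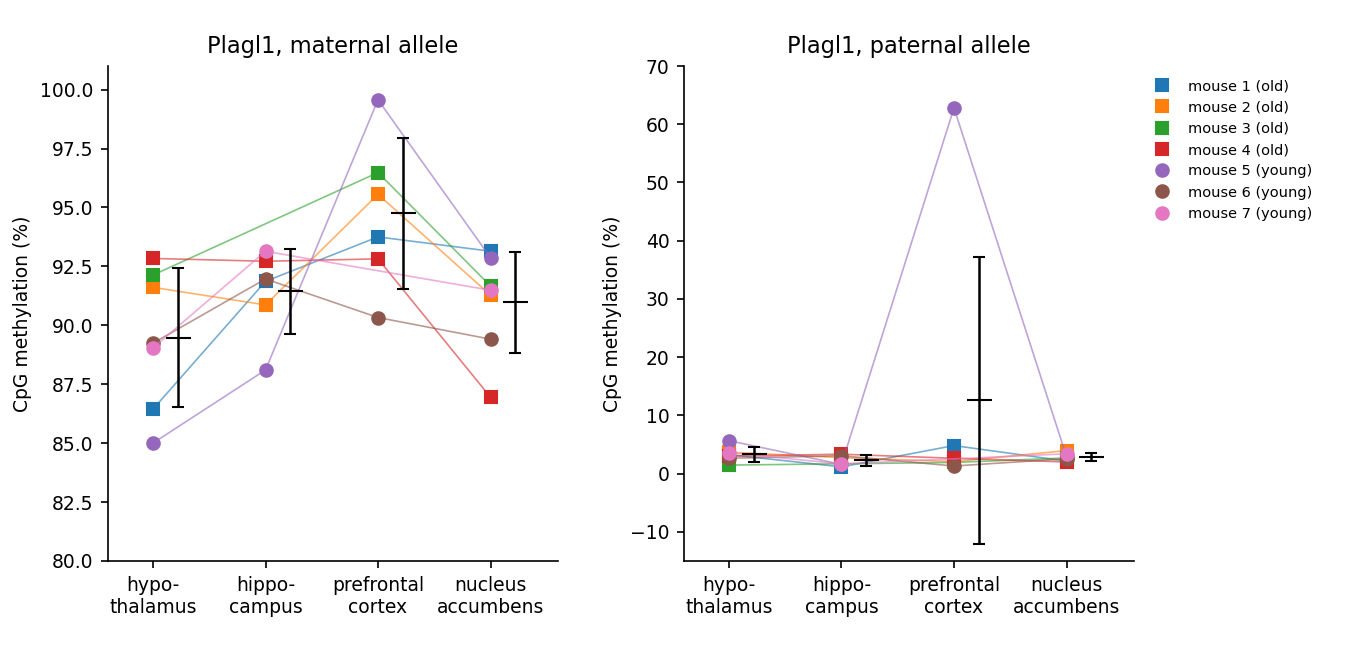
Plagl1 methylation in percent on the maternal (left, axis from 80%) and paternal (right) allele in 4 brain areas, with 1 point and line per mouse (squares old, circles young) and black bars for the mean ± SD. The maternal hypothalamus values reach down to 85.0%, and the prefrontal cortex of mouse 5 is the single high paternal point, at 62.8%.

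The other imprinted regions had small mean differences with wide spread between mice. Gnas, the gene of a G protein subunit that couples hormone receptors to cAMP, had 80.1% ± 5.82 on the maternal allele in hypothalamus and 78.3% ± 8.95 over the telencephalic areas (SD, n = 8). This difference of 1.72 points was -1.76 points without the prefrontal cortex library of mouse 5. Mouse 5 itself stood at 12.5 points with that library and at -15.3 points without it. Impact, the gene of a regulator of translation, was read on chromosome 18 from 12972868 to 12973155 and had 84.7% ± 7.75 on the maternal allele in hypothalamus and 85.5% ± 4.06 over the telencephalic areas (n = 7). Its hypothalamus library of mouse 5, at 67.2%, lay below the 85.6 to 88.8% of the other 6 mice.

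H13, which encodes an intramembrane protease and hosts Mcts2, had 83.4% ± 6.60 on the maternal allele in hypothalamus and 83.6% ± 7.02 over the telencephalic areas (n = 8). Commd1, a gene of copper transport, had 91.1% ± 4.76 in hypothalamus and 92.0% ± 2.90 over the telencephalic areas (n = 6), and Mest had 83.5% ± 3.53 and 82.7% ± 2.78 in the same order (n = 4). On the paternal alleles of Commd1, Gnas, H13 and Impact the hypothalamus was 0.371 to 1.44 points above the telencephalic mean. Without the prefrontal cortex library of mouse 5, paternal Impact stood at 0.0511 points, against 1.19 with it, since mouse 5 then has too few areas for a value. Without the same library paternal H13 stood at 1.32 points, against 0.371 with it, and maternal H13 at -2.05 points, against -0.206 with it. Mouse 5 then stood at 8.15 points at paternal H13 and at -13.3 points at maternal H13. Prickle1, a planar cell polarity gene and the methylated control, was 0.595 points higher in hypothalamus on the maternal allele and 0.505 points higher on the paternal allele, with limma adjusted p of 0.80 for each.

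The gap between the parental alleles, maternal minus paternal methylation, was compared between the divisions. At Plagl1 it was 86.1 points in hypothalamus and 87.0 over the telencephalic areas. At Commd1 hypothalamus had 84.8 points and the telencephalic areas 87.2. At Impact hypothalamus had 77.8 and the telencephalic areas 79.8, at H13 hypothalamus 73.7 and the telencephalic areas 74.3, and at Gnas hypothalamus 67.4 and the telencephalic areas 66.3. Mest, with 3 mice, had 73.4 points in hypothalamus and 71.3 over the telencephalic areas. None of these 6 gaps had an exact sign-flip p under 0.05 between the divisions, the lowest being 0.531. With 3 mice, Mest could not have reached 0.05 in this test. The telencephalic gaps at Plagl1, Gnas and H13 include the prefrontal cortex library of mouse 5. Without it the telencephalic gap at Plagl1 was 89.4 points, and the hypothalamus gap minus it was -3.30 points on average, below 0 in 6 of 7 mice (exact sign-flip p = 0.0469, adjusted 0.281 over the 6 gaps). The difference of the gaps then was -2.22 points at Gnas, against 1.18 with the library, and -3.38 points at H13, against -0.577 with it (exact p = 0.602 and 0.320). Both include mouse 5, whose maternal difference without the library was -15.3 points at Gnas and -13.3 points at H13. At Impact it was 2.36 points without the library in 6 mice, against -2.05 in 7 mice with it (exact p = 0.375 without it).

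Averaged over the imprinted region-alleles of a mouse, maternal methylation was lower in hypothalamus by a mean of -0.466 points ± 2.99 (SD, n = 8, exact sign-flip p = 0.680), with 2 of 8 mice higher. Paternal methylation differed by 0.404 points ± 1.28 (exact p = 0.391, 6 of 8 mice higher), and maternal minus paternal by -0.920 points ± 3.80 (exact p = 0.516, 2 of 8 mice higher). All 3 had an adjusted exact p of 0.680, and 8 mice allow a smallest p of 0.00781. The maternal mean of single mice ran from -5.42 points in young mouse 5 to 3.76 points in old mouse 4. Without the prefrontal cortex library of mouse 5 the maternal mean was -1.38 points, the paternal mean 1.02 points ± 2.19 and maternal minus paternal -2.24 points ± 6.60, with exact p of 0.602, 0.242 and 0.453. Without mouse 5 altogether the maternal mean was 0.242 points.

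Single CpGs were tested to see where in an amplicon a difference lay; CpGs of an amplicon are read on the same molecules and are not independent. Limma called 0 of 214 CpG-alleles (0%), while 28, or 13.1%, had an unadjusted p under 0.05. All 14 tested Sox2ot CpGs had a higher mean in hypothalamus on each allele, by 1.64 to 4.38 points on the maternal allele (12 with an unadjusted p under 0.05) and by 0.688 to 3.97 points on the paternal allele (5). The 5 CpG-alleles with the lowest p were all maternal Sox2ot CpGs. The lowest was position 34649442, with 5.67% ± 1.81 in hypothalamus and 1.85% ± 0.672 over the telencephalic areas (difference 3.83 points, 7 of 7 mice higher, limma adjusted p = 0.194). The other 4, at 34649396, 34649503, 34649370 and 34649529, were 3.72 to 4.38 points higher, each with an adjusted p of 0.215.

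At 34649442 the hypothalamus ranged from 3.09 to 7.41%, prefrontal cortex from 0 to 1.39% and nucleus accumbens from 1.79 to 3.92% over 7 mice each. The lowest hypothalamus value there lay above every prefrontal cortex value and within the ranges of nucleus accumbens and hippocampus. At 34649370 nucleus accumbens was at the level of hypothalamus, with means of 9.86% ± 2.26 in hypothalamus and 9.78% ± 2.34 in nucleus accumbens. The Sox2ot profile kept its shape in both divisions, with its lowest level 60 bases from the first CpG on both alleles.

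Across Plagl1 all 12 tested CpGs had a lower mean in hypothalamus on the maternal allele, by -3.53 to -1.91 points, and 5 had an unadjusted p under 0.05. Without the prefrontal cortex library of mouse 5 all 12 were still lower, by -3.13 to -1.42 points. Position 13091231 on chromosome 10 was lower in 7 of 7 mice, by -3.33 points (limma adjusted p = 0.264). On the paternal allele the direction turned with that library: all 12 means were lower with it, by -2.40 to -1.62 points, and all 12 were higher without it, by 0.463 to 1.25 points. Klf4 had 5 CpGs higher and 10 lower on the maternal allele, between -0.708 and 1.03 points, and 11 higher and 4 lower on the paternal allele. The paternal Klf4 CpGs ran from -2.88 to 0.958 points, and from -0.538 to 0.892 points without the prefrontal cortex library of mouse 5.

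**Figure D5:**
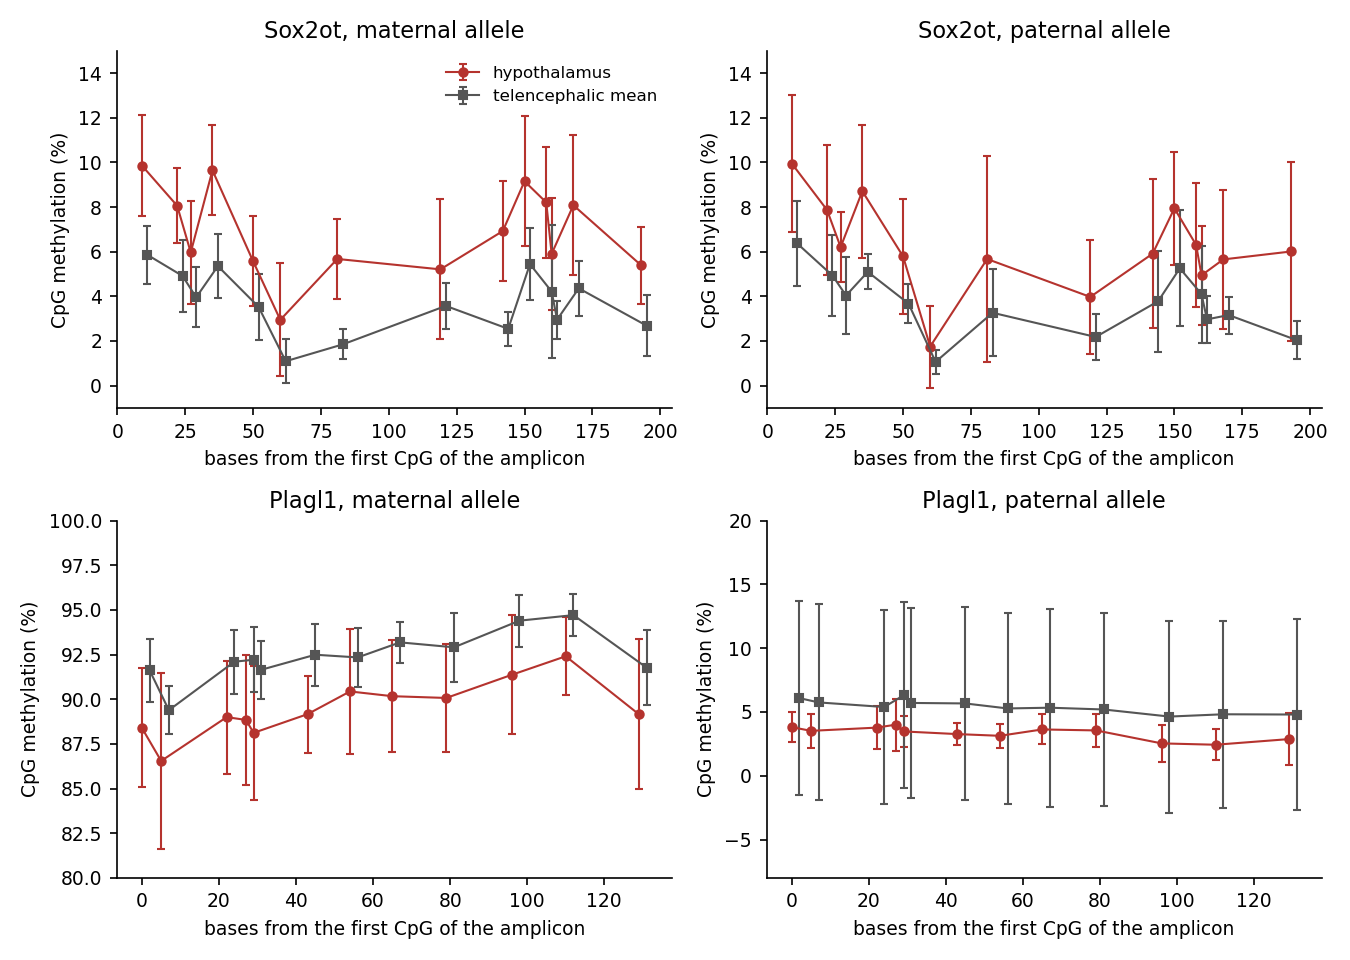
Methylation in percent per CpG of Sox2ot (top) and Plagl1 (bottom) against the distance in bases from the first CpG of the amplicon, for hypothalamus (red circles) and the telencephalic mean (grey squares, shifted slightly to the right), as mean ± SD over mice. At Sox2ot each red mean lies above its grey mean, at Plagl1 each lies below. The wide grey paternal Plagl1 bars include mouse 5, at 22.4% over the region, and without its prefrontal cortex library all 12 paternal differences are above 0.

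No age effect on the hypothalamus difference passed a test. Of 16 region-alleles tested for old minus young with cross as covariate, limma called 0 (0%), 0 had an unadjusted p under 0.05, and 0 had an exact permutation p under 0.05. The smallest permutation p was 0.0286 for 4 against 4 or 4 against 3 mice, and 3 against 3 mice could not reach 0.05. A single p of 0.0286 could not pass adjustment over 16, so the permutation test says little about age. The largest coefficients were at maternal Commd1, where the hypothalamus difference was 1.35 points ± 1.37 in old mice and -3.34 points ± 8.71 in young mice (n = 3 each, coefficient 4.73 points, 95% interval -8.76 to 18.2), and at paternal Plagl1, with 4.63 points (-6.32 to 15.6). At maternal Commd1 young mouse 5 stood at -12.1 points, mouse 6 at 5.36 and mouse 7 at -3.32. Without the prefrontal cortex library of mouse 5 the coefficient at maternal Commd1 was 4.27 points (-7.93 to 16.5). At paternal Plagl1 it turned to -1.43 points (-4.38 to 1.53), with a young mean of 1.60 points ± 1.61, against -5.13 points ± 10.1 with the library. At maternal Sox2ot the difference was 3.48 points ± 2.21 in 4 old mice and 2.74 points ± 0.825 in 3 young mice, a coefficient of 1.11 points (-2.04 to 4.26). At paternal Sox2ot it was 2.45 points ± 2.58 in old and 2.53 points ± 2.11 in young mice, a coefficient of -0.272 points (-5.01 to 4.47).

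The cross gave no adjusted call either. Limma called 0 of 16 (0%) for BL6 mother minus CAST mother, maternal Gnas alone had an unadjusted p under 0.05, and paternal Klf4 alone had an exact permutation p under 0.05. The largest coefficient was at maternal Gnas, where the hypothalamus difference was -2.32 points ± 0.729 with a BL6 mother and 5.76 points ± 6.26 with a CAST mother (n = 4 each). Its coefficient was -8.08 points, with a 95% interval from -15.3 to -0.875 (limma adjusted p = 0.529), and the exact permutation p was 0.0571. This coefficient moved with 1 library. Mouse 5, with a CAST mother, had a difference of 68.1 points against prefrontal cortex, -14.7 against hippocampus and -16.0 against nucleus accumbens. Without its prefrontal cortex library the mean with a CAST mother was -1.19 points ± 10.4 and the coefficient -1.13 points (-12.1 to 9.84, limma adjusted p = 0.967). Leaving that library out moved the difference of mouse 5 from 12.5 to -15.3 points, so mouse 5 is extreme either way. The other mice with a CAST mother stood at -1.77 (mouse 3), 8.97 (mouse 4) and 3.38 points (mouse 6). The next largest coefficient was at maternal Impact, with 4.69 points (-12.8 to 22.2). Maternal Sox2ot was 1.98 points ± 1.68 higher in hypothalamus in 3 mice with a BL6 mother and 4.04 points ± 1.14 higher in 4 with a CAST mother, a coefficient of -2.25 points (-5.40 to 0.904, limma adjusted p = 0.589).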

How the data were processed

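Bisulfite amplicons of 32 libraries (4 brain areas of 8 mice) were used; 24 libraries of a second lane were not used here, and cerebellum and lung of the same lane are given as values alone. The submitters' processing notes name Bismark 0.14.4, Trim Galore 0.6.6 and bcl2fastq 2.20, with the build GRCm38. The deposited table gives methylation in percent per CpG and genome, and in deposited columns the count of calls behind it. Percent times calls gave whole methylated calls within 0.000266. The labels do not say which strain genome 1 is; BL6 was assumed, and the cross then gave the maternal and paternal alleles. How reads were split by genome is not given in the sources used here. The labels mention no molecular identifiers, so calls may not be independent molecules. The Clopper-Pearson intervals cover counting error only, and the limma intervals rest on the spread between mice. CpGs outside the 10 regions had at most 35 calls and were left out.

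A CpG needed 50 calls on its allele. Within-mouse differences were fitted with limma 3.58.1 (R 4.3.3), two-sided, with Benjamini-Hochberg adjustment over all region-alleles of at least 4 mice and a threshold of 0.05. edgeR 4.0.16 tested methylated and unmethylated call counts. Exact sign-flip and permutation tests were two-sided. Fits were tested on simulated data. Allele gaps without the prefrontal cortex library of mouse 5 were added after the data were seen. Labels give the same animal for each number, which pairs the tissues. Deviations of a mouse from the tissue means correlated between tissues with medians of 0.168 to 0.537 over 6 tissue pairs. The lowest correlations lay below 0 in every pair but hypothalamus with hippocampus, down to -0.765, so the pairing rests on the labels.

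Named region-alleles were those past the threshold, the 3 largest and the 2 smallest differences. Named CpGs were the 5 with the lowest p, and for age and cross the 2 largest coefficients were named. Members, regions and this rule were chosen with earlier results of these data known.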

Additional observations from a re-analysis of the deposited data

Results flagged for a closer look

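Dixon's test over groups of 4 to 10 mice marked 15 of 84 groups, where chance marks about 1 in 20. In 8 of the 15 the outlying sample was mouse 5 and in 5 it was mouse 8.

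In prefrontal cortex, mouse 5 stood apart with maternal Gnas at 2.648% (next mouse 76.77%), maternal H13 at 46.08% (next 79.86%), paternal H13 at 29.41% (next 13.75%) and paternal Plagl1 at 62.81% (next 4.821%). The Plagl1 value makes its paternal difference between hypothalamus and telencephalon -16.78 points. In hypothalamus, mouse 5 was lowest at maternal Impact with 67.22%, which gives a difference of -20.52 points, and at maternal Mest with 53.59% (next 79.39%).

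Mouse 8 was the outlying animal at H13, with 74.53% maternal and 15.82% paternal methylation in hippocampus and 55.74% maternal and 18.22% paternal in nucleus accumbens. In hypothalamus its maternal Prickle1 stood at 97.31%, above the 92.5% of the next mouse. In hippocampus, paternal Klf4 was highest in mouse 6, at 3.895%, and paternal Prickle1 in mouse 4, at 95.41%.

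The paternal Klf4 difference between hypothalamus and telencephalon was flagged because its sign split by cross. It was above 0 in each mouse with a BL6 mother (1.28 points ± 0.887, n = 3). With a CAST mother it was below 0 in each mouse (-0.846 points ± 0.613, n = 4). The coefficient was 2.108 points, and the exact permutation p of 0.0286, the smallest that 4 against 3 mice allow, was 0.457 after adjustment over 16 region-alleles (limma adjusted p = 0.589). Without the prefrontal cortex library of mouse 5 that mouse stood at 0.0621 points, so the signs no longer split by cross. The mean with a CAST mother then was -0.560 points ± 0.723. The coefficient was 1.88 points (limma adjusted p = 0.847, exact permutation p again 0.0286).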

How the results depend on the processing

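Maternal Sox2ot kept its positive sign in 26 of 26 alternatives and passed in 12, paternal Sox2ot kept it in 25 of 25 and passed in 5, and maternal Plagl1 kept its negative sign in 26 of 26 and passed in none. Some of the 12 passes left the maternal Sox2ot difference unchanged at 3.16 points and are not separate support. They were those without mouse 8, which has no value there, without the end CpGs, with CpGs shared by a mouse's libraries, with pooled calls, and with adjustment within imprinted and control regions. Fits without the replicate block take the libraries of a mouse as independent. Their passes, on both Sox2ot alleles, and their other calls are therefore not separate support either. The 1 region-allele call became 0 at minimums of 100 and 200 calls, with all 3 areas required, with age and cross as covariates, with the exact sign-flip test (smallest p 0.0156, which cannot pass over 17 tests on its own), with a trended robust fit, and, in alternatives chosen after seeing the data, without hippocampus, prefrontal cortex or nucleus accumbens. It became 2 (both Sox2ot alleles) with the median of the areas, the logit scale and edgeR, and 0 to 2 leaving out 1 mouse. Without the replicate block it was 2, CpG calls were 7 against 0, and hippocampus and prefrontal cortex each had 2 calls. A minimum of 20 calls also gave 2 in each of these areas, and leaving out 1 mouse gave 0 to 1 in prefrontal cortex. Age and cross calls were 0 in each alternative run, though in the exact permutation test a single smallest p could not pass adjustment over 16 region-alleles.

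The imprinted paternal mean turned to -0.1417 points with all 3 areas required, -0.1747 at 200 calls, -0.2448 without hippocampus and -0.4944 without nucleus accumbens. The maternal mean was 0.6227 without hippocampus and -1.379 to 0.242 leaving out 1 mouse or library. Maternal minus paternal was 0.9047 with all 3 areas required, 1.318 without hippocampus and 0.9376 without nucleus accumbens. Single differences that missed the threshold also turned sign. With all 3 areas required, paternal Impact was -0.2725, paternal Commd1 -0.3311 and maternal H13 0.3004. At 20 calls maternal Mest was -4.333; at 100, paternal Klf4 was -0.0626 and paternal Prickle1 -0.4444; at 200, maternal Gnas was -0.06985 and paternal Klf4 -0.9943. Without the end CpGs paternal Klf4 was -0.04135. On log2 odds, maternal Klf4 was 0.05029 (edgeR) and 0.2051 (logit), and paternal Plagl1 0.1598 and 0.1238. With the median, maternal Gnas was -1.847 and paternal Plagl1 0.7814. Without hippocampus, paternal Klf4 was -0.2174, paternal H13 -0.5112, maternal Mest -0.6854 and maternal H13 1.689. Without nucleus accumbens paternal Commd1 was -0.9885. Without prefrontal cortex, paternal Prickle1 was -0.2299, paternal Impact -0.5073, maternal Gnas -1.417 and paternal Plagl1 1.096. Leaving out 1 mouse or library, ranges crossed 0 at maternal Gnas (-1.756 to 2.423), paternal Gnas (-0.3066 to 1.446), paternal Plagl1 (-2.604 to 0.8034), maternal Commd1 (-2.264 to 1.22), maternal Impact (-2.065 to 2.414), maternal H13 (-2.054 to 0.3004), paternal H13 (-0.1409 to 1.321), maternal Klf4 (-0.2203 to 0.04105) and paternal Klf4 (-0.2732 to 0.34). The causes were not tested. A minimum of 200 calls left Sox2ot with no test, so depth limits what these low levels can show.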

Other observations

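Cerebellum and lung of the same mice, which enter no comparison here, give the Sox2ot level outside the forebrain. In cerebellum it averaged 1.88% ± 0.715 maternally and 2.19% ± 0.901 paternally (SD, n = 8), and in lung 2.95% ± 0.909 and 2.53% ± 1.39 in the same order (n = 7). No cerebellum library exceeded 3.26% on either allele. Klf4 averaged 1.28 and 1.08% in cerebellum and 0.974 and 1.18% in lung on the maternal and paternal alleles.

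Besides the H13 CpG at 152686958, the last Prickle1 CpG, at 93500761 on chromosome 15, stood near the middle of the scale on both alleles. It averaged 51.1% in hypothalamus and 49.5% in the telencephalic areas on maternal reads, and 51.9 and 51.5% in the same order on paternal reads, in a region methylated above 90.9% as a whole. What sets these CpGs apart was not tested.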
